A study of Rattus norvegicus with 3 samples.

Results

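The genes described here mark astrocytes and Bergmann glia, the radial astrocytes of the cerebellar cortex. They are Gfap, Vim, Aqp4, S100b, Gdf10, Hopx, Agt, Acsbg1, Aldh1l1 and Sparcl1. They were taken by name, through the array probes whose transcript accession belongs to that rat symbol in RefSeq. All 10 were found among the 38973 genes of the array, with 12 probes. In these counts an accession without a RefSeq symbol stands as a gene of its own. Gfap and Vim encode the intermediate filament proteins by which reactive astrocytes are usually recognised, and they were compared with the other 8.

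Male Wistar rats aged 9 weeks had either transient middle cerebral artery occlusion (MCAO) on the right, made with a filament that was later withdrawn, or a sham operation in which the carotid artery was only exposed. Cerebellar cortex was collected 2 days after surgery. The contralateral array held the left cortex of the MCAO group, the ipsilateral array its right cortex, and the control array the left cortex of the sham group. Each array held RNA from the tissue of 4 rats, pooled, so there was 1 array per group and no replicate. The 2 MCAO arrays are taken here as the 2 sides of the same 4 rats, which the study's design implies and no sample label states. No test was possible, and no difference below could be set against the spread between rats. Both MCAO sides were compared with the same control array, so their ratios share its error, and no right cortex of a sham rat was measured.

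Bergmann glia stand beside the Purkinje cells, and their fibres cross the molecular layer to the surface of the cortex. They take up glutamate and potassium around Purkinje cell synapses, while other astrocytes lie in the granular layer and white matter. After injury, astrocytes near a lesion commonly raise Gfap and Vim, and the water channel Aqp4 sits in the endfeet that they place on vessels and on the brain surface. All values came from whole tissue, in which fewer cells of a type and less RNA per cell cannot be told apart.

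Levels are given as scaled signal, the spot intensity after the arrays were brought to 1 common 75th percentile. A log2 ratio of 0 is no difference, and 1 is a doubling. The error given with a ratio comes from the scanner software's error for each spot. It was close to 0.20 for those of the 10 genes with 1 probe. For some dim genes named below it was larger, such as Steap4 at 0.29 contralaterally and 0.28 ipsilaterally. This error covers neither rats nor hybridisations. As a second measure, 840 probes printed at 10 spots were well above background at every spot, and the median SD of their log2 ratio over the spots was 0.04 in each of the 3 comparisons. That SD covers only differences between spots of 1 array pair.

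Markers listed for both kinds of glia were detected in the labelled tissue. The glutamate transporter gene Slc1a3 is on both lists, so the lists do not fully separate the kinds. All 10 genes were well above background on all 3 arrays, as were 9 of 9 astrocyte markers and 6 of 6 markers of Bergmann glia. The plot of scaled signals by array shows that for most of the genes the 3 arrays lay close together, and that Gfap and Aqp4 were the clearest exceptions.

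**Figure D1:**
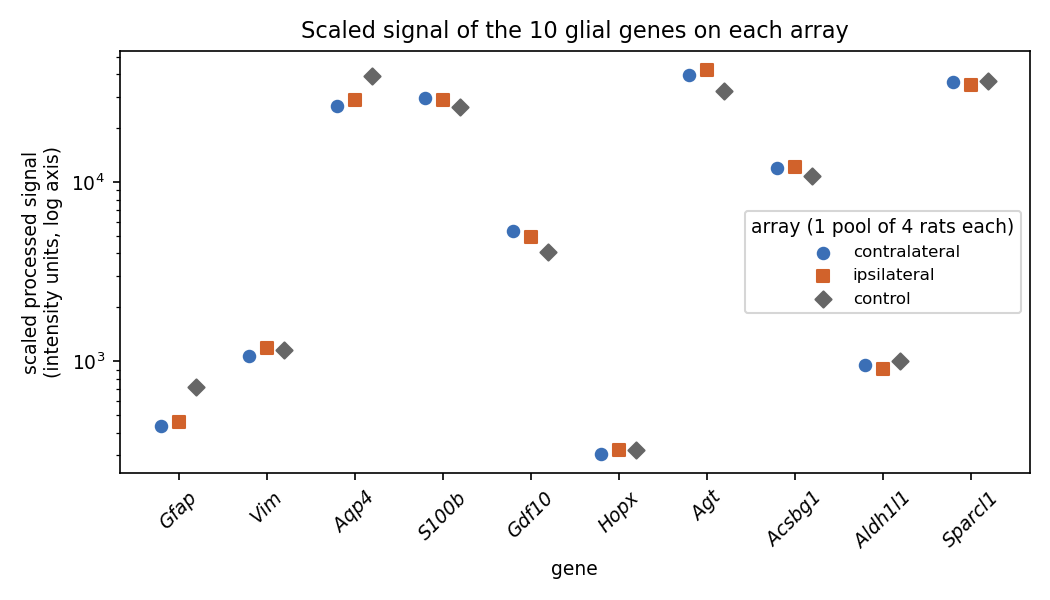
Scaled signal (intensity units, log axis) of each of the 10 glial genes in contralateral, ipsilateral and control tissue, 1 point per array. Gfap and Aqp4 lay lower on both MCAO arrays than on the control array, and Gdf10 and Agt lay higher. Different genes have different probes, so heights should not be compared between genes.

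Gfap, the filament protein of astrocytes, had a scaled signal of 434 in contralateral, 459 in ipsilateral and 722 in control tissue. Both MCAO arrays were thus below the control array and near each other. The log2 ratio to control was -0.73 contralaterally and -0.66 ipsilaterally, each with a scanner error of 0.20. For comparison, 22096 genes were well measured, which means here that all their probes were well above background on each array. Besides the glial genes described here, 11250 of them had a symbol, and the rest were accessions without one. Of all 22096, 2.23% had a lower contralateral ratio and 2.51% a lower ipsilateral ratio. Between the sides the log2 ratio of Gfap was -0.08, which is inside its scanner error. Gfap was read from 1 spot per array, so its value had no repeat spot to set it against.

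Vim encodes vimentin, the partner of Gfap in reactive astrocytes, and is also made by Bergmann glia, vessels and meninges. Its probe was printed at 10 spots, with mean scaled signals of 1077 on the contralateral, 1192 on the ipsilateral and 1156 on the control array. The spots ran from 1003 to 1159, from 1119 to 1296 and from 1015 to 1257 on those arrays, so all 3 ranges overlapped. Spot by spot, 10 of 10 were lower on the contralateral than on the control array, and 9 of 10 were higher on the ipsilateral than on the control array, which covers only spots of 1 array pair. The log2 ratio to control was -0.10 contralaterally and 0.04 ipsilaterally, both inside the scanner error of 0.20. The ipsilateral sign turned under 3 of 12 other ways of processing. The SD of the ratio over the 10 spots was 0.05 on either side.

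The reactive pair therefore did not move together. Gfap lay 0.80 log2 units under the median of the other 8 genes on the contralateral side (difference -0.80) and 0.71 under it on the ipsilateral side (difference -0.71). For Vim the same differences were -0.16 and -0.02. The mean of the pair minus the median of the other 8 was -0.48 contralaterally, -0.36 ipsilaterally and -0.13 between the sides. It was negative under all 12 alternatives in each comparison, and Gfap was the lower of the pair in both comparisons with control. A difference of this kind within an array does not depend on how the arrays are scaled by 1 factor each.

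The promoters of Gfap and Vim are shown because these genes make up the pair and differed from each other. RefSeq promoter windows of the GRCr8 assembly, from 250 bases before the start to 50 after it, were found for 9 of the 10 genes, 10 windows in all, and none was matched for Agt. They were searched on both strands for TTCNNNGAA (the STAT motif), TGANTCA (AP-1) and TTGGCA (the core of NFI sites). No match to one overlapped a match to another in the windows of these genes. Of all 33469 windows of this length in the table, 8.87%, 7.33% and 13.98% held a match to these motifs in that order. Neither window below held a match, which says only that these letters are absent there. The 250 bases before the start are printed from 5′ to 3′, in lower case, with matches in capitals where there are any.
Gfap, chr10:88361662-88361911, minus strand: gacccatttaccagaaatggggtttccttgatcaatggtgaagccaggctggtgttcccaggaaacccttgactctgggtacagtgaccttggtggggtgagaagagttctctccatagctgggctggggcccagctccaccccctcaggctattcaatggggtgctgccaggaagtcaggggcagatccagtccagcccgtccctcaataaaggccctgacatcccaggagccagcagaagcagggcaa
Vim, chr17:81577011-81577260, plus strand: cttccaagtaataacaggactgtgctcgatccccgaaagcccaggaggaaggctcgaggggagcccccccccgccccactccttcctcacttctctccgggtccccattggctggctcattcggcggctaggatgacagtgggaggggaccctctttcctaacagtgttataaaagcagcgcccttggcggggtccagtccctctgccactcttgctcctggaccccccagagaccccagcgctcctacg

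Aqp4, the main water channel of astrocyte endfeet, was the other gene below control on both sides by more than its scanner error. Its scaled signal was 26616 on the contralateral, 28580 on the ipsilateral and 39026 on the control array. Both MCAO arrays were again low and near each other. The log2 ratio to control was -0.55 contralaterally and -0.45 ipsilaterally, with scanner errors of 0.20, and -0.10 between the sides. Of all genes, 4.35% had a lower contralateral ratio and 5.56% a lower ipsilateral one. Aqp4 was also read from 1 spot per array. Its ratios and those of Gfap to control were negative under every one of the 12 alternatives. With 1 probe at 1 spot for each gene, the alternatives that only choose probes or spots could not change these ratios.

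RefSeq lists 2 promoter windows for Aqp4, shown because the gene moved in the same direction as Gfap. Neither held a match to the STAT, AP-1 or NFI letters.
Aqp4, window 1, chr18:6798843-6799092, minus strand: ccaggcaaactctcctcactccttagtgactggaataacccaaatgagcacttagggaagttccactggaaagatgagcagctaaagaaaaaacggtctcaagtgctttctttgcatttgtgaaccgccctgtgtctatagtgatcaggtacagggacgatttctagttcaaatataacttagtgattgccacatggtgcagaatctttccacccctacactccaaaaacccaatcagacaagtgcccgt
Aqp4, window 2, chr18:6797927-6798176, minus strand: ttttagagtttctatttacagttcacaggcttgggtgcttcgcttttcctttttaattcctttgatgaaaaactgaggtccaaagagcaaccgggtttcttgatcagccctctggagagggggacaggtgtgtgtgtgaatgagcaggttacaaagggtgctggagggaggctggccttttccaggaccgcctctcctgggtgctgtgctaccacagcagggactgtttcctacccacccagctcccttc

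**Figure D2:**
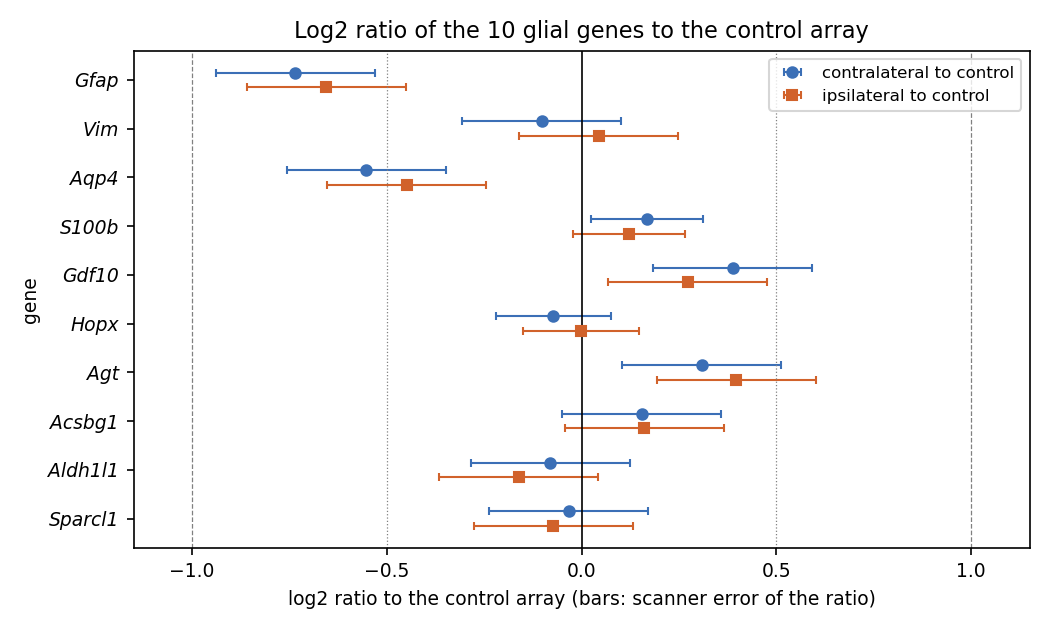
Log2 ratio of each of the 10 glial genes to the control array on the contralateral (circles) and ipsilateral (squares) side, with bars for the scanner error of the ratio. Dotted and dashed lines mark 0.5 and 1 in either direction. Gfap lay at -0.73 and -0.66 and Aqp4 at -0.55 and -0.45, while Vim lay at -0.10 and 0.04.

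Few of the 10 genes passed a limit. At the study's own limit of 1 on the log2 scale, none of the 10 was called in any comparison and in either direction. Among all 22096 genes, 1.41% were above 1 and 0.855% below -1 on the contralateral side, and 3.1% and 0.801% on the ipsilateral side. Between the sides these shares were 0.217% and 1.54%. With so few members, a count of 0 at such shares is no result about them.

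At the smaller limit of 0.5, Gfap and Aqp4 were below -0.5 on the contralateral side, 2 of 10 genes, where 5.35% of all genes were. Gfap alone was below it on the ipsilateral side, 1 of 10, beside 4.48% of all genes. This count was 2 under 3 alternatives, with Aqp4 added, and 5 without scaling. None of the 10 was above 0.5, beside 5.31% of all genes contralaterally and 9.79% ipsilaterally. Between the sides none was above 0.5 or below -0.5, beside 1.2% and 6.85% of all genes. The 10 genes lay on both sides of 0. On the contralateral side 4 were above 0 and 6 below, with a median of -0.05, and on the ipsilateral side 5 were above and 5 below, with a median of 0.02. The medians over all genes were 0.01 and 0.03.

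Gdf10 and Hopx are enriched in Bergmann glia within the cerebellum. Gdf10, a secreted member of the TGF-beta superfamily, had scaled signals of 5364, 4949 and 4098 in contralateral, ipsilateral and control tissue. The control array was the lowest of the 3. The log2 ratios to control were 0.39 and 0.27, with scanner errors of 0.20, and 92.5% and 81.8% of all genes had lower ratios on the 2 sides. Without any scaling between arrays, the ipsilateral ratio was -0.26.

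Hopx encodes a small homeodomain protein that does not bind DNA by itself. Averaged over its 2 probes, its scaled signal was 303 on the contralateral, 318 on the ipsilateral and 319 on the control array, and its log2 ratios to control were -0.07 and -0.0018. The 2 probes disagreed, since the dim one gave -0.25 and 0.07 and the bright one 0.11 and -0.07. Each probe had 1 spot, and the direction of Hopx is therefore undetermined.

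S100b, a calcium-binding protein of astrocytes that is abundant in Bergmann glia, had 2 probes at 10 spots each. Over both, the scaled signal was 29680 on the contralateral, 28743 on the ipsilateral and 26431 on the control array. The 2 probes gave close log2 ratios, 0.17 and 0.16 on the contralateral side and 0.14 and 0.10 on the ipsilateral side. For the brighter probe, control spots ran from 43302 to 45527 and did not overlap with contralateral spots, from 46176 to 51819, or ipsilateral ones, from 45761 to 51202. For the other probe, the contralateral spots, from 16846, lay above the control spots, which reached 16492, and the ipsilateral spots, from 16290, did not. The gene's ratios of 0.17 and 0.12 nevertheless sat beside a scanner error of 0.14, which takes the errors of the 2 probes as independent. Each probe alone had an error of 0.20, which its ratios did not exceed. The gene's ipsilateral ratio took the other sign under 3 of the 12 alternatives.

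**Figure D3:**
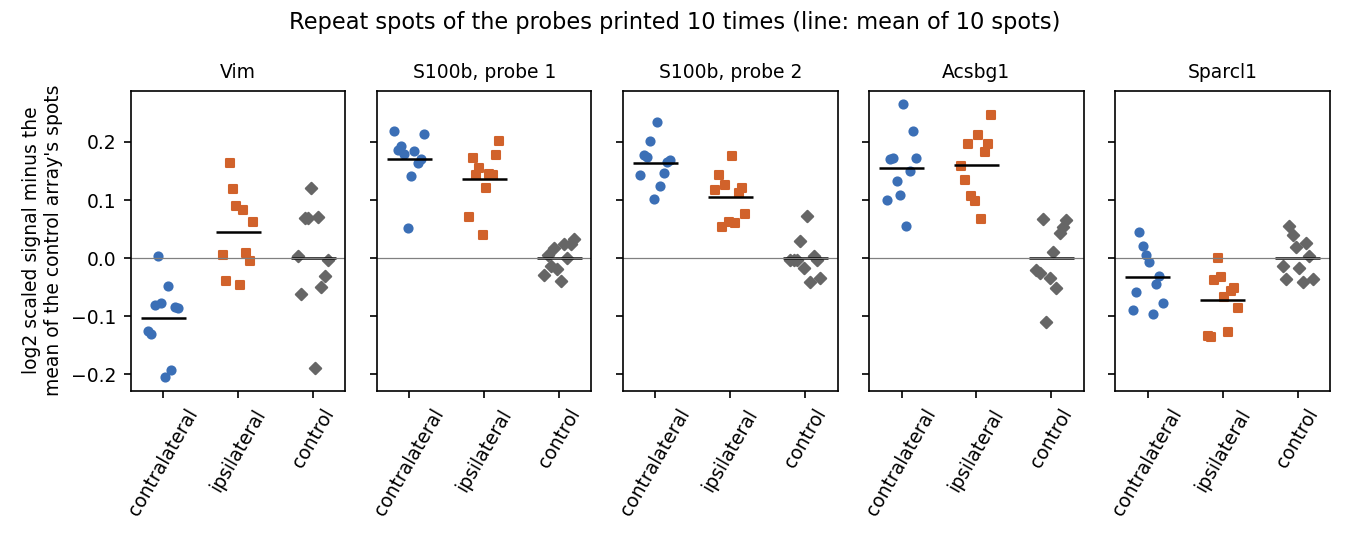
Repeat spots of the 5 probes that were printed at 10 spots, for Vim, S100b (2 probes), Acsbg1 and Sparcl1. Each point is 1 spot, as its log2 scaled signal minus the mean of the control array's 10 spots, and black lines are the means of 10 spots. The spots of Vim overlap on all 3 arrays, while both S100b probes lie higher on average on the MCAO arrays. The spread between spots is not a spread between rats.

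Agt encodes angiotensinogen, the precursor of the angiotensin peptides, which astrocytes produce in brain. Its scaled signal was 39800 on the contralateral, 42315 on the ipsilateral and 32152 on the control array. The control array was the lowest, and the 2 MCAO arrays were near each other. The log2 ratios were 0.31 and 0.40, with scanner errors of 0.20, and 89.7% and 87.2% of all genes had lower ratios. The ipsilateral ratio was -0.14 without scaling between arrays.

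Acsbg1 and Aldh1l1 encode metabolic enzymes of astrocytes, an acyl-CoA synthetase and a folate enzyme. Acsbg1 had mean scaled signals over 10 spots of 12073 on the contralateral, 12118 on the ipsilateral and 10845 on the control array. Its log2 ratios were 0.15 and 0.16, inside the scanner error of 0.20, and the ipsilateral ratio took the other sign under 2 of the 12 alternatives. Aldh1l1, a marker of astrocytes in general, had scaled signals of 953, 901 and 1008, and ratios of -0.08 and -0.16, also inside the error. Its control array was the highest of the 3 by a small margin.

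The promoter window of Acsbg1 is shown as the only one of the 10 with the STAT letters. It held 2 matches, of which 1 lies in the bases printed here, in capitals, from 210 to 202 bases before the start. The other lies after the start. The window of S100b held 1 match to the NFI letters, and no window held the AP-1 letters. These matches are descriptions of sequence, and binding was not measured.
Acsbg1, chr8:63943279-63943528, minus strand: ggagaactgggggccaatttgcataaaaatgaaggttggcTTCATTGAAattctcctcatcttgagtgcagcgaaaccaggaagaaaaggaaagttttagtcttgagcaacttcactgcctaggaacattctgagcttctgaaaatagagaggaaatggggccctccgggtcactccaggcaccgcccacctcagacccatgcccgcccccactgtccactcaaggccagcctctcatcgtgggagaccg

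Sparcl1, a matricellular protein that astrocytes secrete at synapses, had the contralateral ratio nearest to 0 of the 10 genes. Its mean scaled signals over 10 spots were 36038, 35059 and 36873 in contralateral, ipsilateral and control tissue. The log2 ratios were -0.03 and -0.07.

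Set side by side, 5 of the 10 genes had a contralateral ratio larger than its scanner error (Gfap, Aqp4, S100b, Gdf10 and Agt) and 4 an ipsilateral one (the same without S100b). Over all genes these shares were 35.1% and 38.9%, so the counts are near the background. Gfap and Aqp4 were on the low side and the others on the high side. S100b passed only with the error of 0.14 that combines its 2 probes. Each probe alone, at 0.17 and 0.16, lay inside its own error of 0.20. Between the 2 MCAO sides no gene of the 10 exceeded its scanner error, beside 24.4% of all genes. The direction of Gfap, Aqp4, Aldh1l1 and Sparcl1 was the same under every alternative on both sides. Each of them has 1 probe and no outlier spot, so the choice of probes or spots could not change it. On the ipsilateral side the other 6 genes changed sign under at least 1 alternative. Leaving out the scaling lowered every ipsilateral ratio, so no negative ratio could turn there, and all 5 positive ones of the 10 did. Measured from the median of all genes under the same processing, only Hopx changed sign on the contralateral side, and Vim and S100b on the ipsilateral side.

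**Figure D4:**
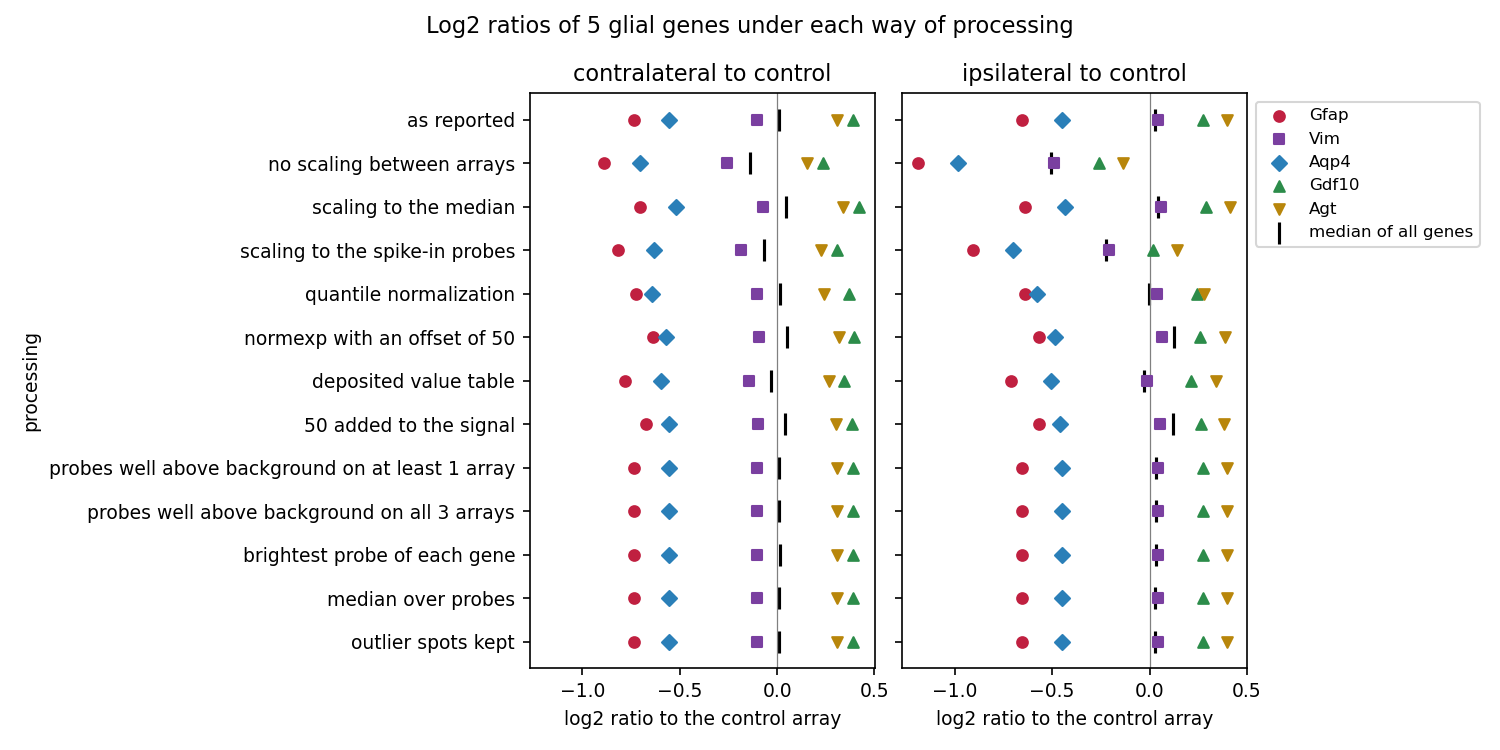
Log2 ratios to the control array of Gfap, Vim, Aqp4, Gdf10 and Agt as reported and under each of 12 alternatives, on the contralateral (left) and ipsilateral (right) side. Vertical ticks mark the median of all genes under the same processing. Gfap and Aqp4 lay left of 0 and of that median in every row. Without scaling, the ipsilateral median itself lay at -0.50, and Gdf10 and Agt lay left of 0 but right of the median.

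The genes whose pair of ratios lay nearest to that of Gfap, out of 11250 named genes, were Ifgga2l1, Emcn and Spmip9, each at a Euclidean distance of 0.03 log2 units. Their contralateral ratios were -0.74, -0.76 and -0.75 and their ipsilateral ratios -0.68, -0.68 and -0.69. With 50 added to every signal they parted from Gfap, at -0.67 and -0.57, since Ifgga2l1 had -0.35 and -0.12, Emcn -0.50 and -0.32, and Spmip9 -0.11 and 0.20. The likeness therefore depended on the processing. Emcn encodes endomucin of vascular endothelium. Likeness over 2 ratios that share a control array says nothing of shared function or control.

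Other genes of astrocyte reactivity had no common direction from control. Of 25 listed, 23 were on the array and 18 were well measured, Gfap and Vim included. On the contralateral side 7 were above 0 and 11 below, with a median of -0.13, and on the ipsilateral side 11 were above and 7 below, with a median of 0.15. Without Gfap and Vim the medians were -0.11 and 0.20. Beyond 0.5 in either direction there were 3 above and 4 below on the contralateral side and 5 above and 2 below on the ipsilateral side. Over all genes the shares above and below were 5.31% and 5.35% contralaterally and 9.79% and 4.48% ipsilaterally. Several of these genes were dim, but not all of those beyond 0.5. Hspb1 had ratios of 0.77 and 0.81 and Cp 0.54 and 0.91, from control signals of 701 and 343. Timp1 had 0.08 and 0.83 from 732. Tm4sf1 lay the other way, at -0.54 and -0.39 from 1206. These genes are named after their values were seen. Between the sides, 1 of the 18 was above 0 and 17 below, beside 53.1% of all genes below 0. The median was -0.17, beside -0.01 over all genes, and its sign turned under 2 of the 12 alternatives, to 0.22 without scaling and 0.0071 when spike-in probes set the scale. Both shift all genes alike. Measured from the median of all genes it ran from -0.17 to -0.10 and did not change sign.

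Steap4, a metalloreductase raised in inflamed tissue, had the highest ratio of the list on both sides, 1.54 and 2.96. It was dim, with scaled signals of 41.0, 109.8 and 14.1 in contralateral, ipsilateral and control tissue, and with 50 added to every signal its ratios were 0.63 and 1.58. Nes, which encodes the filament protein nestin, was the lowest on the contralateral side at -0.86 and had -0.48 on the ipsilateral side. Its signals were also dim, and with 50 added its ratios were -0.35 and 0.02. The chemokine gene Cxcl10 was the lowest on the ipsilateral side at -0.76, with -0.67 contralaterally. It was also dim, and with 50 added its ratios were -0.34 contralaterally and -0.20 ipsilaterally. The list holds 1 more filament gene, Synm, with ratios of 0.24 and 0.42, which is named after its values were seen.

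Of 14 genes of Bergmann glia, all were on the array and 13 were well above background, with 5 above 0 and 8 below on either side and medians of -0.05 and -0.02. Gdf10 was the highest on both sides. Fabp7, the brain fatty acid-binding protein of radial glia and Bergmann glia, was the lowest, with ratios of -0.79 and -0.89. Its scaled signal was 1590 on the contralateral, 1486 on the ipsilateral and 2759 on the control array. Among the 13 it was the only gene beyond 0.5 in either direction. It was lower than control under all alternatives, though with 1 probe the choice of probe could not matter. The 1 gene outside the 13 is Tnc, not well above background on every array, with scaled signals of 34.5, 27.8 and 126.0 in contralateral, ipsilateral and control tissue, for which no ratio is given. Slc1a3, the glutamate transporter of Bergmann glia, had ratios of 0.01 and 0.03.

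The astrocyte transport and metabolism genes, 19 of 19 well above background, had medians of 0.00 and 0.02, with 10 above 0 and 9 below on either side. Gjb6, the gap junction protein connexin 30, was the highest, with ratios of 0.71 and 0.72 from scaled signals of 5151, 5168 and 3147 in contralateral, ipsilateral and control tissue. The lowest were the mitochondrial carrier Slc25a18 on the contralateral side, at -0.58, and the amino acid exchanger Slc7a10 on the ipsilateral side, at -0.45. Glul, glutamine synthetase, was the other gene above 0.5 on both sides, at 0.58 and 0.53. It is named after its values were seen in this list, and was the highest of the astrocyte markers by rule. Without scaling between arrays its ipsilateral ratio was -0.01.

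Of 10 endfoot genes, 8 were on the array and 7 well above background. Aqp4 was the lowest of them and Gjb6 the highest on both sides. The medians were -0.20 and 0.04, with 3 above 0 and 4 below on the contralateral side and 4 above and 3 below on the ipsilateral side. The low value of Aqp4 was therefore not a common property of the list.

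For the 13 astrocyte transcription factor and receptor genes, all well above background, the medians were -0.07 and -0.05, and 6 and 5 of them were above 0. Nfia, a factor of astrocyte development, was the highest on the contralateral side at 0.52 and the lowest on the ipsilateral side at -0.41, from dim signals of 77.1, 40.5 and 53.8. Its brighter probe alone gave 1.05 and -0.55, and with 50 added the gene's ratios were 0.39 and 0.07. The opposition of the sides about 0 therefore depended on the processing. With 50 added the medians of all genes were 0.04 and 0.12, and Nfia lay above the first and below the second. Notch1 was the lowest contralaterally, at -0.29, and Sox9 the highest ipsilaterally, at 0.22. The sign of Sox9 turned under 3 of the 12 alternatives on that side, to -0.11 with the median over its 4 probes. 

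Among 10 secreted and matricellular genes, 9 were on the array and 6 well above background, with 4 above 0 and 2 below on each side and medians of 0.03 and 0.04. Sparc, the relative of Sparcl1, was the highest at 0.57 and 0.49, with -0.04 on the ipsilateral side without scaling between arrays. Its scaled signals were 45912, 43383 and 30913 in contralateral, ipsilateral and control tissue, so that it differed from Sparcl1, which sat near 0. The lowest were Thbs2 on the contralateral side, at -0.23, and Sparcl1 itself on the ipsilateral side.

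Of 11 renin-angiotensin genes, 9 were well above background, with 3 above 0 and 6 below on either side and medians of -0.06 and -0.05. Agt was the highest on the contralateral side. The receptor gene Agtr1b was the highest on the ipsilateral side, at 0.44, and the peptidase gene Enpep the lowest on both, at -0.38 and -0.34. Enpep was dim, and with 50 added its ratios were -0.16 and 0.03. Without Agt the medians were -0.12 and -0.05.

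Of 13 S100 genes, 11 were well above background, with 5 and 7 above 0 and medians of -0.03 and 0.06. S100a9, a myeloid cell protein, was the highest at 0.58 and 1.04. It had dim signals of 50.2, 68.6 and 33.5, and with 50 added its ratios were 0.35 and 0.76. The lowest were S100a11 on the contralateral side, at -0.51 (dim, and -0.21 with 50 added), and S100a16 on the ipsilateral side, at -0.28.

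Of 20 genes of the TGF-beta superfamily and its receptors, to which Gdf10 belongs, 19 were on the array and 15 well above background, with 8 and 6 above 0 and medians of 0.01 and -0.03. The receptor gene Acvr1b was the highest contralaterally, at 0.48, and Tgfb1 ipsilaterally, at 0.77. Both were dim. With 50 added Acvr1b had 0.30 contralaterally, below Gdf10 at 0.38, and Tgfb1 had 0.62 ipsilaterally. Bmp4 was the lowest on both sides, at -0.58 and -0.49.

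**Figure D5:**
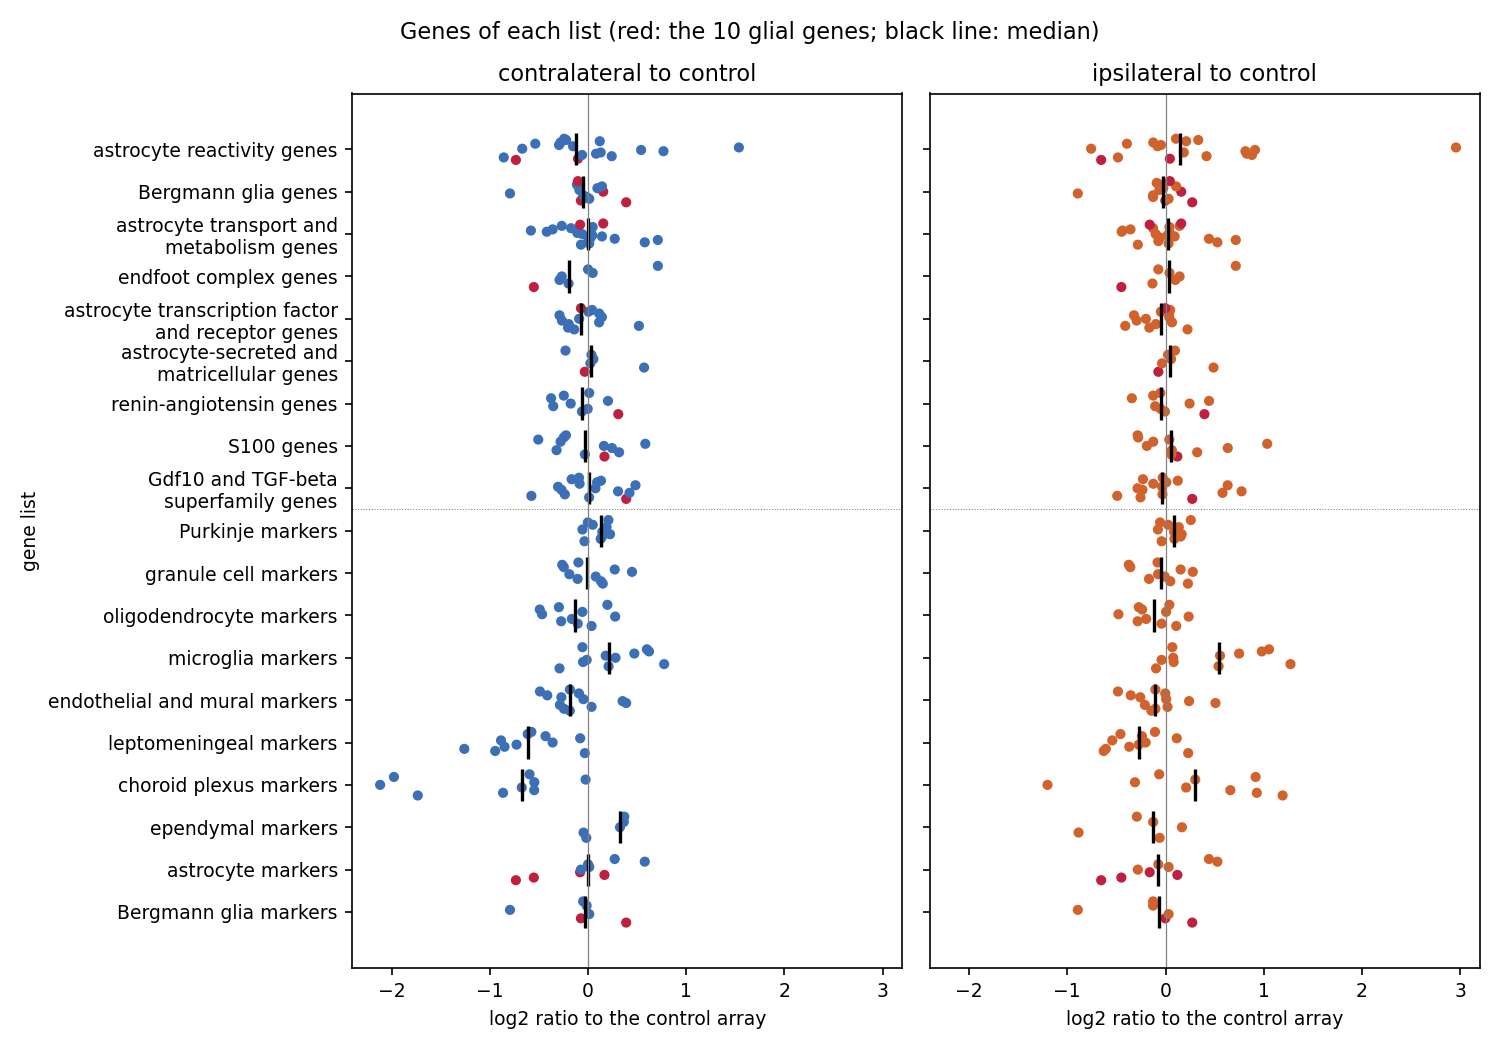
Log2 ratio to the control array of the genes of each list on the contralateral (left) and ipsilateral (right) side, for well measured genes. Red points are the 10 glial genes and black lines the medians. The lists of glial genes have medians within -0.20 and 0.15, while leptomeningeal markers lie lower on the contralateral side (median -0.61) and microglia markers higher on the ipsilateral side (median 0.54).

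Markers of other cells were measured beside the glial genes, because Vim, Aqp4 and Gfap are also made at the brain surface or in other cell types. All 11 leptomeningeal markers were well above background. On the contralateral side 0 were above 0 and 11 below, with a median of -0.61, and on the ipsilateral side 2 were above and 9 below, with a median of -0.27. Their summed scaled signal was 90381 on the contralateral, 105015 on the ipsilateral and 101369 on the control array, most of it from Ptgds, the brightest, with ratios of -0.08 and 0.11. Col1a1 was the lowest contralaterally at -1.26 and Lum, which was dim and at 0.12 with 50 added, ipsilaterally at -0.63, and Dcn was the highest at -0.03 and 0.23. These markers were thus low in the pools in which Gfap and Aqp4 were low, and their part in those results was not tested.

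All 11 microglia markers were well above background, with 7 above 0 and 4 below on the contralateral side (median 0.21) and 9 above and 2 below on the ipsilateral side (median 0.54). Their summed scaled signal was 14354 on the contralateral, 18024 on the ipsilateral and 10617 on the control array. The chemokine receptor gene Cx3cr1 was the highest, at 0.78 and 1.27, and Aif1 the lowest, at -0.29 and -0.10. The complement gene C1qb, the brightest, had 0.62 and 0.98. Microglia markers lay above control in the same pools in which Gfap lay below it, and their part in the glial values was not tested.

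Of 11 choroid plexus markers, 9 were well above background, and Kl and Prlr were not on every array. Their summed scaled signal was 11882 on the contralateral, 78605 on the ipsilateral and 35834 on the control array, nearly all of it from Ttr, with ratios of -1.73 and 1.19. The medians were -0.67 and 0.30, and Slc4a5 was the lowest at -2.12 and -1.20. Slc4a5 was dim, and with 50 added its ratios were -0.70 and -0.20. The highest on the contralateral side was Otx2, at -0.02. In the same pools Gfap had -0.73 and -0.66 and Aqp4 -0.55 and -0.45. The part of choroid plexus in these values was not tested. Of 6 ependymal markers, 5 were on the array, all well above background, with summed scaled signals of 579.7, 461.7 and 509.4 and medians of 0.33 and -0.13. Rsph1, the brightest, had 0.33 and 0.17, the highest ipsilaterally. Tekt1 was the highest contralaterally at 0.37, and Tmem212 was the lowest at -0.05 and -0.89. Both were dim, and with 50 added Tekt1 had 0.22 and 0.33 and Tmem212 had 0.01 and -0.32. The ipsilateral median of these markers was 0.10 with 50 added and 0.11 with normexp. Measured from the median of all genes it ran from -0.16 to -0.01 over the alternatives and did not change sign. The part of these markers in the glial values was not tested.

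Markers of neurons and oligodendrocytes were measured in the same way. The 10 Purkinje cell markers had medians of 0.14 and 0.09, with 7 above 0 and 3 below on either side, and summed scaled signals of 224366, 223110 and 204445. Itpr1, the brightest, had 0.22 and 0.16, Pvalb was the highest ipsilaterally at 0.26, and Slc1a6 was the lowest at -0.06 and -0.08. The 10 granule cell markers had medians of -0.01 and -0.04, and summed scaled signals of 118201, 115290 and 120467, with 5 and 4 above 0. Zic2 was the highest at 0.45 and 0.28, Grin2c the lowest at -0.26 and -0.37, and Cbln1 the brightest at -0.10 and -0.08.

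The 10 oligodendrocyte markers had medians of -0.13 and -0.12, with 3 and 4 above 0. Mobp was the highest at 0.28 and 0.24, Ermn the lowest contralaterally at -0.49, and Cnp ipsilaterally at -0.48. With 50 added, Ermn had -0.34 contralaterally and Cnp, at -0.45, was below it. Of 13 endothelial and mural markers, 12 were well above background, with 3 and 4 above 0, medians of -0.19 and -0.10, and summed scaled signals of 15161, 16119 and 14907. The glucose transporter gene Slc2a1 was both the brightest and the highest, at 0.39 and 0.51, and Vtn was the lowest, at -0.49 and -0.48. Their part in the glial values was not tested.

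The astrocyte markers, 4 of which are among the 10 genes, had summed scaled signals of 308700 on the contralateral, 337980 on the ipsilateral and 275978 on the control array. Most of this came from Aldoc, the brightest, at 228140, 256822 and 188969, with ratios of 0.27 and 0.44. The sums therefore follow mainly that 1 gene and do not show a rise of the list. With quantile normalization the ratios of Aldoc were 0.015 and 0.0073, and without scaling its ipsilateral ratio was -0.09. The list median was 0.00 contralaterally, with 5 markers above 0 and 4 below, and -0.07 ipsilaterally, with 4 above and 5 below. The 6 markers of Bergmann glia, of which Gdf10 and Hopx are members, had sums of 21652, 21055 and 21629 and medians of -0.03 and -0.06, and Slc1a3 was the brightest. Every marker list held genes well above background on every array.

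For glial lists with medians this close to 0, the sign depended on the processing, by scaling and by other steps such as the choice of probe or an added offset. Of the 9 gene lists, 7 changed the sign of the contralateral median and 9 that of the ipsilateral median under at least 1 alternative. Measured from the median of all genes under the same processing, 3 and 6 did.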

How the data were processed

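Gene expression was measured in cerebellar cortex on 3 arrays of 1 colour. The authors labelled the pooled RNA with Cy3 and deposited each spot's intensity from Agilent Feature Extraction 12.1.0.3, already background-subtracted and without scaling. A deposited value table held the same intensity times 1.12, 1.45 and 1.04 on the contralateral, ipsilateral and control array (column medians 139.4, 139.6 and 146.9); whether these factors are the normalization named in the methods is unknown. All 3 arrays lay on 1 slide and were read in 1 scan.

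Processed signals were log2-transformed and shifted to 1 common 75th percentile over 58717 non-control spots. No spot was saturated, and 759 outlier spots were left out. Log2 values were averaged over repeat spots and then over the probes of each gene. Of 39957 accessions, 17622 matched a symbol in RefSeq (assembly GRCr8), used for names; only promoter windows carry its coordinates. Normexp was run on median spot and background signals, and mean spot signals were not used here. The members and lists were chosen with earlier results of these data known. Named were all members; the highest and lowest gene of each of 9 gene lists and 10 marker lists on each side, among well measured genes (all probes well above background on each array); the brightest gene of each marker list, except for 1 list, where that gene and the summed signal are not reported here; and the 3 genes nearest to Gfap. A list median covers only genes that passed this filter. With 1 array per group, no test was run. The gene calculation was tested on simulated data. Python 3.11.15, numpy 2.4.6, pandas 2.3.3, R 4.3.3 and limma 3.58.1 were used, with 12 alternatives.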

Additional observations from a re-analysis of the deposited data

Results flagged for a closer look

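The 2 MCAO sides lay on opposite sides of the control array for Vim (contralateral to ipsilateral log2 ratio -0.15), with both ratios inside the scanner error, and for the medians of 4 gene lists. These were the astrocyte reactivity genes (-0.13 contralateral and 0.15 ipsilateral), the endfoot genes (-0.20 and 0.041), the S100 genes (-0.032 and 0.060) and the TGF-beta superfamily genes (0.011 and -0.031). The ipsilateral sign of Vim and of each of these 4 medians changed under at least 1 alternative. On the contralateral side the sign turned under 4 of the 12 alternatives for the TGF-beta superfamily genes and under 1 for the S100 genes. Relative to the median of all genes, the TGF-beta medians were -0.0012 and -0.061, which is below 0 on both sides. Measured from the median of all genes, the astrocyte reactivity medians kept their signs, from -0.14 to -0.11 contralaterally and from 0.04 to 0.12 ipsilaterally. None of these differences was tested, since each side was 1 array.

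Spots of the negative controls, which enter no comparison, were brighter on both MCAO arrays than on the control array only after scaling. Their scaled median was then higher by 0.060 log2 units on the contralateral and by 0.52 on the ipsilateral array, over 274 spots. Without scaling it differed from that of the control array by -0.09 and -0.01. Its part in the ratios of dim genes was not tested.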

How the results depend on the processing

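No paired analysis was possible because each group had 1 array. Without scaling between arrays, the median of all genes moved by -0.15 on the contralateral side, -0.53 on the ipsilateral side and 0.38 between the sides, and with scaling to spike-in probes by -0.08, -0.25 and 0.17. The mean of Gfap and Vim minus the median of the other 8 genes ran from -0.55 to -0.42 on the contralateral side, from -0.36 to -0.29 on the ipsilateral side and from -0.15 to -0.13 between the sides over 12 alternatives. Most of these alternatives could not move that difference.

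Of the counts of the 10 genes past a limit, only the ipsilateral counts below a limit changed. Below -0.5 there were 5 without scaling, and 2 with spike-in scaling, 2 with quantile normalization and 2 with the deposited table, against 1 as reported. Below -1 there was 1 without scaling, Gfap at -1.19. Measured from the median of all genes, the contralateral median of the endfoot genes ran from -0.21 to -0.04 and that of the Bergmann glia genes from -0.08 to 0.09.

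Of 360 ratios of the 10 genes under the alternatives, 36 moved by more than their scanner error: 22 without scaling, 12 with spike-in scaling and 2, both of Hopx, with the brightest probe of each gene. Among other named genes, called ipsilateral ratios turned for Glul (-0.0054) and Slc2a1 (-0.025) without scaling, and for Lum (0.060 and 0.12) and Spmip9 (0.26 and 0.20) with normexp and with 50 added to the signal. Those last 2 genes are dim, where an added offset outweighs the signal. With 50 added, the sign changed for 1 of the 51 other named genes on the contralateral side and for 6 on the ipsilateral side. That setting also moved the median of all genes, by 0.03 contralaterally and by 0.09 ipsilaterally, to 0.12. Some turned ipsilateral ratios, such as that of Nes at 0.02, lay below this median.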
